A study of Mus musculus with 4 samples.

Results

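The genes described here build or switch on motile cilia, the beating hairs of the airway surface, and they were measured by RNA sequencing in 4 mouse lung tumour samples. The list held 39 genes, chosen by symbol from the axoneme (the microtubule core of a cilium), its dynein arms, its radial spokes and the regulators of the program. Of these, 38 were found by symbol among the 24391 genes counted, and all 38 passed the filter on low counts that left 16001 genes for testing. Dnah3, an inner arm dynein heavy chain, was not analysed here.

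All 4 samples came from tumours carrying K-Ras LSL-G12D, a mutant K-Ras allele kept silent by a lox-flanked stop until it is recombined. The 2 samples of the K-Ras group carried that allele alone. The 2 samples of the Mll4-deleted group, titled K-Ras Mll4-/-, also carried floxed Mll4 (K-Ras LSL-G12D;Mll4 fl/fl). Mll4 is now named Kmt2d and encodes an enzyme that methylates histone H3, chiefly at enhancers. The comparison asks how tumours labelled as lacking it differ from those without that label. The labels give neither the source of Cre, nor the age of the mice, nor whether the samples of a group came from separate animals, so the p-values measure the spread between these samples, which may be technical. Each tumour was digested to single cells and depleted of leukocytes bearing CD45, and no step against other cells of the lung is named. Ptprc, which encodes CD45, still stood at 274 and 143 CPM in the K-Ras samples and at 269 and 171 CPM in the Mll4-deleted samples. Between 26683033 and 36677987 reads per sample were assigned to genes, and 3 reads corresponded to between 0.0818 and 0.112 CPM, read counts set relative to the library's total, a limit that covers counting error only.

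In the lung, motile cilia stand on multiciliated cells of the conducting airways, where their beat moves mucus, and they are not a feature of the alveolar cells. Foxj1 and the RFX factors switch on the genes of the axoneme, and RFX factors bind a paired sequence called the X-box in the promoters of many of them. Outer and inner dynein arms drive the sliding of the microtubules, and the radial spokes, the central pair and the nexin links shape that sliding into a beat. Loss of many of these genes causes primary ciliary dyskinesia in people.

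Since these genes are known for shared promoter sequences, the promoters were searched for 3 motifs on both strands. They were TGTTTAC, a forkhead core, then GTTGCC, one arm of the X-box, and then an X-box pair, GTTNCC followed after 0 to 3 bases by GGNAAC, which can contain the single arm. A promoter was taken as the 250 bases before and 50 bases after a gene start, from the RefSeq promoter table of GRCm38.p6. Entries were present for 34 of the 38 members, and a gene counted if any of its listed promoters held the motif. The single arm was present for 20 of those 34 genes (58.8%), against 2510 of 17492 protein-coding genes (14.3%). The pair was present for 3 of 34 (8.82%) against 155 genes (0.886%), and the forkhead core for 3 of 34 (8.82%) against 603 genes (3.45%). Among related lists the single arm was present for 14 of 39 other axoneme genes (35.9%) and 7 of 8 genes of dynein arm assembly. It was present for 6 of 12 genes of multiciliated cell formation and 12 of 27 genes of intraflagellar transport (44.4%). Among airway markers it was present for 3 of 5 ciliated, 0 of 7 club and 1 of 4 goblet cell genes. Of the alveolar markers, 1 of 5 type 2 and 1 of 5 type 1 genes held it. No basal, neuroendocrine, endothelial, fibroblast, smooth muscle, immune or mesothelial marker with a promoter entry did. These are matches of letters and not measured binding sites. The 6 promoters below show the motifs in capitals. They are the 3 that hold the pair, and 3 examples of the other motifs, of which Tekt1 holds the single arm once on each strand, and Mlf1 and Sntn hold a forkhead core and a single arm.
Fam183b, chr11:58801911-58802210, minus strand: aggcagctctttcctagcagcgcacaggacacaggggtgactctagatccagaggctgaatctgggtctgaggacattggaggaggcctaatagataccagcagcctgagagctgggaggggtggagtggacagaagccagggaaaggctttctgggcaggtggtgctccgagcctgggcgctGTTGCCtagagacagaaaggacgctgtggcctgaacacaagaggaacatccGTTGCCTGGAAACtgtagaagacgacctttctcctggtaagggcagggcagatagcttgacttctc
1110017D15Rik, chr4:41507715-41508014, minus strand: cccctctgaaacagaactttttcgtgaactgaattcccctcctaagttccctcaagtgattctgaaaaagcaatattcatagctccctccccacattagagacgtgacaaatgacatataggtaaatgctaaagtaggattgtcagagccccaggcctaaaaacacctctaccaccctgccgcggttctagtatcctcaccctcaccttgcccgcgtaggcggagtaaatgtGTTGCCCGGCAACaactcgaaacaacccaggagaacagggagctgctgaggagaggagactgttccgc
Pifo, chr3:106001448-106001747, minus strand: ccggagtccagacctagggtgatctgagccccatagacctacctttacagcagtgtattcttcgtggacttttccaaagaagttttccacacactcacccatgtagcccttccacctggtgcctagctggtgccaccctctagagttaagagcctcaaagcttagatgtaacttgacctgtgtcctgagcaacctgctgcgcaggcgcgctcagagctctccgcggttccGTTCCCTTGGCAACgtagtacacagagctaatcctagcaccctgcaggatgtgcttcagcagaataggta
Tekt1, chr11:72361833-72362132, minus strand: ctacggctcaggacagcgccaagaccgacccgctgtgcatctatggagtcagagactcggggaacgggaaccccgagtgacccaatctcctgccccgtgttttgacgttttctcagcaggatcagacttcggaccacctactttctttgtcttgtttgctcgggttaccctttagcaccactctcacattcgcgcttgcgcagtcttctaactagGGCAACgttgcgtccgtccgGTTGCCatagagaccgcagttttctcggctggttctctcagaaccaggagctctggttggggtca
Mlf1, chr3:67373847-67374146, plus strand: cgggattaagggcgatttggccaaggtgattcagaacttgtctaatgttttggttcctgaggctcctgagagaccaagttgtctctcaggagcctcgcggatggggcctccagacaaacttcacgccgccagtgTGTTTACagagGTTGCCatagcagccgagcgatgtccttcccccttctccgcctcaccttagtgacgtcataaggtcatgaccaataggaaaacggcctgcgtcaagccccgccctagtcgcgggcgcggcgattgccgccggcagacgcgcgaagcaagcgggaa
Sntn, chr14:13670626-13670925, plus strand: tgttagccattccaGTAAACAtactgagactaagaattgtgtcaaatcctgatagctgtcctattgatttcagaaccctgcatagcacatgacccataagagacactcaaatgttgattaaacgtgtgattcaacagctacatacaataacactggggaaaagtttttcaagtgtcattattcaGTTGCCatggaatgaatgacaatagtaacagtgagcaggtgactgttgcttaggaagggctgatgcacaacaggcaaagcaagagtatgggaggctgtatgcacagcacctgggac

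The pair in Pifo began at position -20, that in Fam183b at position -16 and that in 1110017D15Rik at position -18 from the gene start of the promoter shown. Pifo, 1110017D15Rik and Tekt1 each had another listed promoter, which held none of the motifs. In Mlf1 the forkhead core and the X-box arm lay 4 bases apart.

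The targeted gene was examined first. Kmt2d stood at 395 and 526 CPM in the K-Ras samples and at 367 and 317 CPM in the Mll4-deleted samples. The groups did not overlap, and the log2 fold change was -0.43 with a standard error (SE) of 0.21 and an adjusted p of 0.302 (edgeR quasi-likelihood test, Benjamini-Hochberg adjustment over all genes tested). Kmt2d was thus not called, and transcripts of a floxed gene can still be counted outside the removed exons, so the count does not settle the labels.

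Motile cilia transcripts were most abundant by far in 1 of the 4 samples. Summed over the 38 genes they came to 447 CPM in K-Ras replicate 1 and 2263 CPM in K-Ras replicate 2, and to 249 and 274.0 CPM in Mll4-deleted replicates 1 and 2. K-Ras replicate 2 was thus 5.06-fold above the other K-Ras sample, while the Mll4-deleted samples differed by 1.10-fold. Both K-Ras samples were above both Mll4-deleted samples, and K-Ras replicate 1 was 1.71-fold above the Mll4-deleted mean. The K-Ras group had a mean of 1355 ± 1284 CPM and the Mll4-deleted group one of 261 ± 17.7 CPM (SD, n = 2 in both). The difference of -1094 CPM was smaller than the SD of the K-Ras group, and a two-sided exact permutation test gave p = 0.333, the smallest p that 2 samples against 2 allow. As a share of all gene-assigned reads the 38 genes took 0.0470% and 0.223% in the K-Ras samples and 0.0245% and 0.0269% in the Mll4-deleted samples. In bulk RNA, fewer ciliated cells and less cilia RNA per cell cannot be told apart.

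None of the 38 genes passed the test between the groups, although every estimate was lower in Mll4-deleted tumours. The edgeR adjusted p ranged from 0.176 to 0.438 over the members. Over all genes, 6 of 16001 were called (0.0375%), all 6 higher in Mll4-deleted tumours. At an unadjusted edgeR p under 0.05, 26 of the 38 members were lower and 0 higher, where 10.4% of all genes tested were lower. With limma-voom, another test, 1 of the 38 had an unadjusted p under 0.05, where 3228 of all 16001 genes did, higher or lower. DESeq2 called 29 members lower at an adjusted p under 0.05, where it called 4.98% of all genes lower. The 9 it did not call were Foxj1, Rfx3, Dnah6, Tekt2, Ccdc114, Rsph9, Tmem212, Pifo and Sntn. The median log2 fold change was -2.38 over the members and -0.01 over all genes tested. Both Mll4-deleted samples lay below both K-Ras samples for 36 of 38 members, and for 28.5% of all genes.

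**Figure D1:**
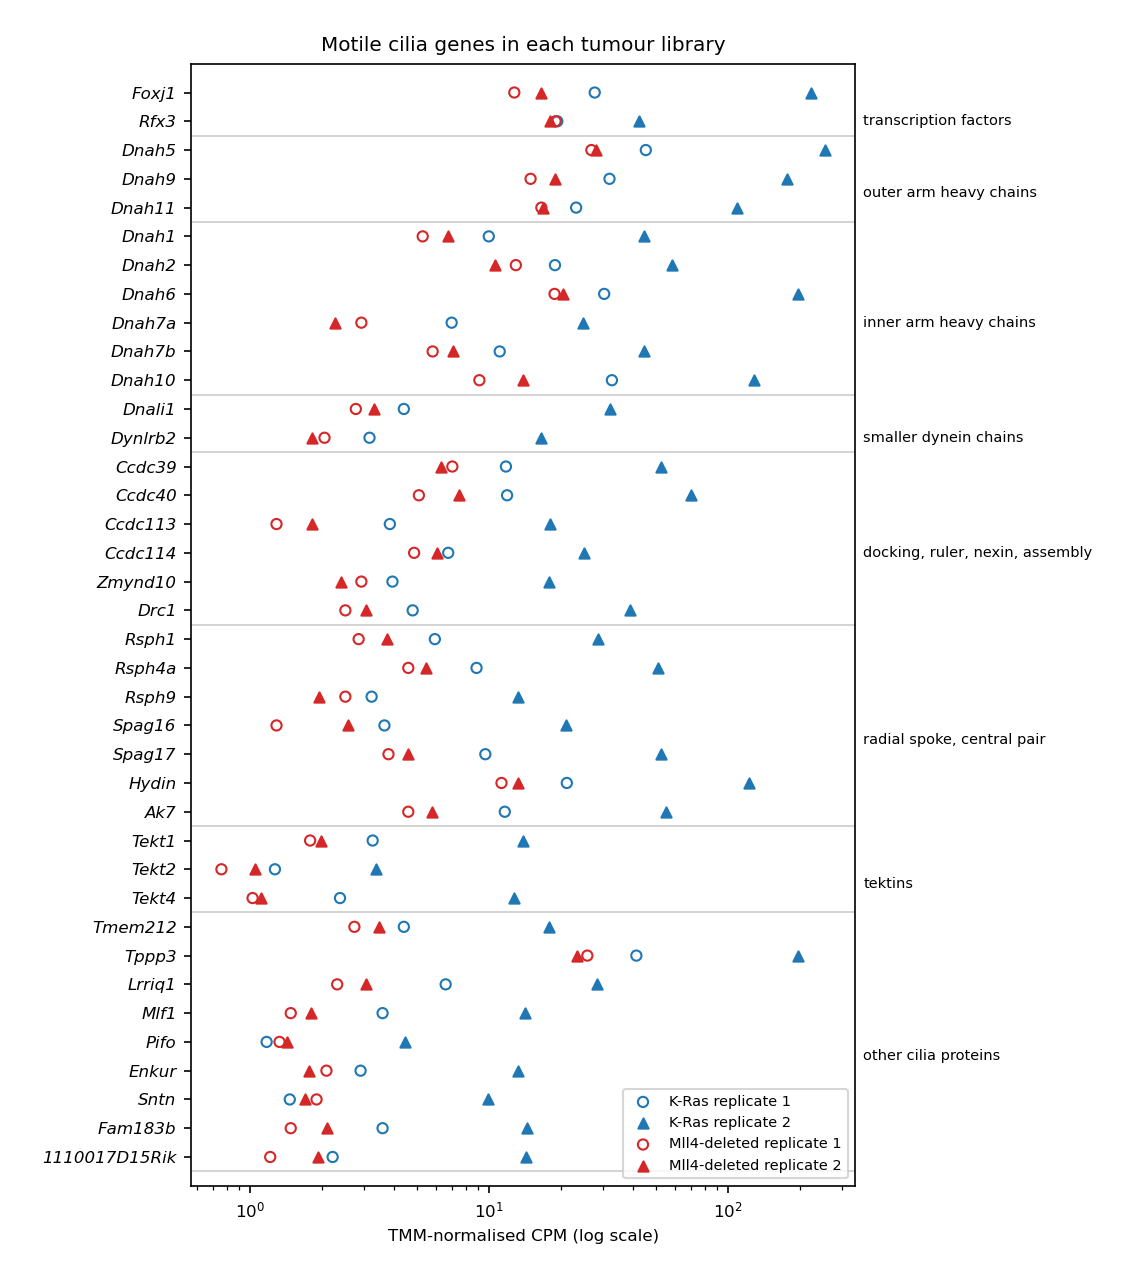
Normalised CPM on a log axis of each of the 38 motile cilia genes in each of the 4 tumour libraries, grouped by role, with 1 marker per library. K-Ras replicate 2 is the rightmost marker in every row, and K-Ras replicate 1 lies right of both Mll4-deleted markers in 36 rows, all but Pifo and Sntn.

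In the accounts of single genes that follow, 4 values in a row are normalised CPM in K-Ras replicate 1, K-Ras replicate 2, Mll4-deleted replicate 1 and Mll4-deleted replicate 2, with the reads behind them in parentheses in the same order. Fold changes in log2 are Mll4-deleted minus K-Ras from edgeR, with the SE. The K-Ras fold is CPM in replicate 2 over replicate 1, with a 95% exact interval that covers counting error only. Wherever both Mll4-deleted samples are said to lie below both K-Ras samples, 28.5% of all genes tested had that order too.

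The regulators spanned the range of the whole list. Foxj1, the forkhead factor that switches on the motile cilia program, stood at 27.8, 222, 12.8 and 16.5 CPM (849, 8021, 336 and 533 reads). The K-Ras fold was 7.99 (interval 7.45 to 8.59), and the log2 fold change between groups was -3.09 (SE 1.03). Rfx3, an X-box binding factor that also serves non-motile cilia, stood at 19.4, 42.4, 19.04 and 18.1 CPM (592, 1534, 500 and 583 reads). Its K-Ras fold, 2.19 (interval 1.99 to 2.41), was the smallest of the 38, and K-Ras replicate 1 was nearly level with Mll4-deleted replicate 1. Foxj1 took 6.20% of the summed member CPM in K-Ras replicate 1 and 9.81% in K-Ras replicate 2, whereas Rfx3 took 4.33% and 1.88%. Per kilobase of the longest transcript, Foxj1 was above Rfx3 in every sample, at 10.6, 84.6, 4.88 and 6.30 CPM per kilobase against 2.12, 4.64, 2.08 and 1.98.

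The heavy chains of the outer dynein arm, the larger motor of the axoneme, were among the most heavily sequenced members. Dnah5, the outer arm chain present along the whole cilium, stood at 45.4, 255, 26.9 and 28.2 CPM (1389, 9208, 706 and 909 reads). Dnah9, the chain of the distal cilium, stood at 32.0, 177, 14.97 and 18.9 CPM (979, 6391, 393 and 608 reads). Dnah11, the chain of the proximal cilium, stood at 23.2, 109, 16.6 and 16.8 CPM (710, 3956, 436 and 542 reads). In each of the 3 genes the Mll4-deleted samples lay close together and below both K-Ras samples. Their log2 fold changes were -2.45 (SE 0.84) for Dnah5, -2.63 (SE 0.85) for Dnah9 and -1.99 (SE 0.75) for Dnah11. The K-Ras folds were 5.61 (interval 5.30 to 5.94) for Dnah5, 5.52 (interval 5.16 to 5.91) for Dnah9 and 4.71 (interval 4.35 to 5.11) for Dnah11, and the counting interval of Dnah11 did not meet those of the other two. In GRCm38, 4.56% of the exon bases of Dnah11 overlap Cdca7l on the opposite strand, and the strand setting of the counting is not given in the sources used here.

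The heavy chains of the inner arms, which set the bend of the cilium, had K-Ras folds from 3.09 to 6.47. Dnah10 stood at 32.8, 128, 9.14 and 13.9 CPM (1002, 4640, 240 and 448 reads). K-Ras replicate 1 exceeded the Mll4-deleted mean 2.84-fold in Dnah10, the widest such gap of the 38 genes, and the log2 fold change was -2.80 (SE 0.73). Dnah6 stood at 30.4, 197, 18.9 and 20.4 CPM (930, 7110, 495 and 659 reads), with a K-Ras fold of 6.47 (interval 6.04 to 6.93). Dnah2 stood at 18.9, 58.5, 12.99 and 10.6 CPM (579, 2113, 341 and 341 reads), with a K-Ras fold of only 3.09 (interval 2.82 to 3.39). The intervals of these 2 genes lay on opposite sides of the fold of the summed list. Dnah1 stood at 10.0, 44.8, 5.29 and 6.73 CPM (306, 1618, 139 and 217 reads), with both Mll4-deleted samples lowest. Dnah7a stood at 6.998, 24.9, 2.93 and 2.26 CPM (214, 900, 77 and 73 reads), and Dnah7b at 11.1, 44.5, 5.83 and 7.07 CPM (340, 1608, 153 and 228 reads). Of their 50-base windows, 40.3% in Dnah7a and 48.4% in Dnah7b are found in another gene. The gene sharing most was Dnah7b for Dnah7a and Dnah7c for Dnah7b. Reads that fit more than 1 of these genes were not assigned to a gene, so both levels are uncertain. The 6 inner arm genes had a median log2 fold change of -2.36, from -2.80 to -1.72.

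The smaller dynein chains repeated the order of the groups at lower counts. Dnali1, a light intermediate chain of the inner arms, stood at 4.41, 32.3, 2.78 and 3.32 CPM (135, 1166, 73 and 107 reads). Dynlrb2, a roadblock-type light chain, stood at 3.17, 16.6, 2.06 and 1.83 CPM (97, 600, 54 and 59 reads). Dnali1 had one of the widest K-Ras folds, 7.31 (interval 6.11 to 8.80), against 5.23 (interval 4.22 to 6.56) for Dynlrb2. Their log2 fold changes were -2.59 (SE 0.98) for Dnali1 and -2.35 (SE 0.84) for Dynlrb2. Of the exon bases of Dnali1, 2.02% overlap Gnl2 on the opposite strand.

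Genes that dock, space, link or assemble the arms followed. Ccdc39 and Ccdc40 form the molecular ruler that sets the repeat of the arms along the microtubule. Ccdc39 stood at 11.8, 52.5, 7.05 and 6.30 CPM (361, 1896, 185 and 203 reads), and Ccdc40 at 11.9, 70.2, 5.10 and 7.48 CPM (365, 2537, 134 and 241 reads). Their K-Ras folds, 4.44 (interval 3.97 to 4.99) for Ccdc39 and 5.88 (interval 5.27 to 6.58) for Ccdc40, had intervals that did not overlap, and 34.2% of the exon bases of Ccdc39 overlap Ttc14 on the opposite strand. Ccdc114, a part of the outer arm docking complex, stood at 6.77, 25.1, 4.87 and 6.05 CPM (207, 906, 128 and 195 reads). Its K-Ras replicate 1 value lay 1.24-fold above the Mll4-deleted mean, one of the narrowest gaps, and its log2 fold change was -1.54 (SE 0.66). Drc1, a core part of the nexin-dynein regulatory complex, stood at 4.81, 38.96, 2.51 and 3.07 CPM (147, 1408, 66 and 99 reads). Its K-Ras fold, 8.10 (interval 6.83 to 9.67), was the widest of the 38, beside a log2 fold change of -2.97 (SE 1.04). Zmynd10, which assembles dynein arms in the cytoplasm before they enter the cilium, stood at 3.96, 17.8, 2.93 and 2.42 CPM (121, 645, 77 and 78 reads). Ccdc113, a coiled-coil protein of the cilium, stood at 3.86, 18.04, 1.29 and 1.83 CPM (118, 652, 34 and 59 reads). Both K-Ras values of Ccdc113 were clear of both Mll4-deleted values, K-Ras replicate 1 by 2.47-fold over their mean.

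The radial spokes and the central pair shape the beat, and their 7 genes shared the order of the groups. The radial spoke head genes were Rsph1, at 5.95, 28.6, 2.86 and 3.75 CPM (182, 1032, 75 and 121 reads), Rsph4a, at 8.89, 50.9, 4.61 and 5.46 CPM (272, 1839, 121 and 176 reads), and Rsph9, at 3.24, 13.2, 2.51 and 1.95 CPM (99, 478, 66 and 63 reads). Rsph9 had the smaller log2 fold change, -1.88 (SE 0.74), against -2.38 (SE 0.80) for Rsph1 and -2.57 (SE 0.87) for Rsph4a. Hydin, a large protein of the central pair apparatus, stood at 21.2, 123, 11.3 and 13.3 CPM (649, 4454, 297 and 429 reads). Spag16, also of the central pair, stood at 3.66, 21.03, 1.29 and 2.58 CPM (112, 760, 34 and 83 reads), and its Mll4-deleted samples differed by 1.99-fold, the widest such difference of the 38 genes. Spag17, another central pair protein, stood at 9.68, 52.4, 3.81 and 4.59 CPM (296, 1893, 100 and 148 reads), with a log2 fold change of -2.88 (SE 0.86). The Spag17 exons overlap Wdr3 on the opposite strand over 10.4% of their bases. Ak7, an adenylate kinase of motile cilia, stood at 11.7, 55.0, 4.61 and 5.80 CPM (357, 1989, 121 and 187 reads). In each of these genes both Mll4-deleted samples lay below both K-Ras samples, an order found for 28.5% of all genes tested. The K-Ras folds of these genes ran from 4.09 to 5.81.

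The tektins, filament proteins inside the microtubule doublets, were thinly covered. Tekt1 stood at 3.27, 13.9, 1.79 and 1.99 CPM (100, 504, 47 and 64 reads), and Tekt4 at 2.39, 12.7, 1.03 and 1.12 CPM (73, 459, 27 and 36 reads). Tekt2 stood at 1.28, 3.38, 0.762 and 1.05 CPM (39, 122, 20 and 34 reads), and its 20 reads in Mll4-deleted replicate 1 were the fewest of any member in any sample. The order of the groups was the same in all 3 genes, with log2 fold changes of -2.19 (SE 0.75) for Tekt1, -2.81 (SE 0.88) for Tekt4 and -1.35 (SE 0.60) for Tekt2. The Tekt2 K-Ras fold of 2.65 (interval 1.83 to 3.90) and that of Tekt1, 4.26 (interval 3.43 to 5.34), had overlapping counting intervals. The Tekt4 K-Ras fold was 5.32 (interval 4.15 to 6.91), and its interval overlapped that of Tekt1 but lay above that of Tekt2.

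The remaining 9 genes are associated with cilia in other ways. Tppp3, a tubulin polymerisation promoting protein, stood at 41.5, 196, 25.9 and 23.3 CPM (1268, 7097, 679 and 751 reads). Per kilobase it was the most abundant member in all 4 samples, at 29.7, 141, 18.5 and 16.7 CPM per kilobase. Tmem212, a membrane protein used as a marker of ciliated cells, stood at 4.41, 17.9, 2.74 and 3.48 CPM (135, 648, 72 and 112 reads). Lrriq1, a leucine-rich repeat protein, stood at 6.61, 28.5, 2.32 and 3.07 CPM (202, 1030, 61 and 99 reads), and Mlf1, known as a Foxj1 target, at 3.60, 14.3, 1.49 and 1.80 CPM (110, 515, 39 and 58 reads). Enkur, which encodes enkurin, stood at 2.91, 13.3, 2.09 and 1.77 CPM (89, 479, 55 and 57 reads). In each of these 5 genes the Mll4-deleted samples lay below both K-Ras samples, and the log2 fold changes ran from -2.70 in Lrriq1 to -1.84 in Tmem212. Fam183b stood at 3.60, 14.5, 1.49 and 2.11 CPM (110, 524, 39 and 68 reads), and 1110017D15Rik at 2.22, 14.3, 1.22 and 1.92 CPM (68, 516, 32 and 62 reads), again with no overlap between the groups.

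Pifo and Sntn broke the pattern. Pifo, which encodes pitchfork, a protein known from primary cilium disassembly, stood at 1.18, 4.46, 1.33 and 1.43 CPM (36, 161, 35 and 46 reads). Sntn, which encodes sentan, a protein of the ciliary tip, stood at 1.47, 9.96, 1.90 and 1.71 CPM (45, 360, 50 and 55 reads). In both genes K-Ras replicate 1 was the lowest of the 4 samples, 0.853 times the Mll4-deleted mean in Pifo and 0.815 times in Sntn, and K-Ras replicate 2 was the highest. The log2 fold changes were -1.03 (SE 0.71) for Pifo and -1.67 (SE 0.93) for Sntn, and neither was called. Pifo had 36 reads in K-Ras replicate 1 and 35 in Mll4-deleted replicate 1, and Sntn had 45 and 50 reads there. The order of both genes among the lower 3 samples thus rests on small counts.

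Compared per kilobase of the longest transcript within each sample, Tppp3 was the most abundant member and Foxj1 held rank 2 in all 4 samples, and Dnah7a was lowest, at rank 38, in all 4. The rank of Dnah7a is uncertain, since 40.3% of its 50-base windows are found in another gene and reads that fit both were not assigned. Fam183b, Tmem212 and Dynlrb2 took ranks 3 to 5 in every sample. Other members moved more between samples, such as Drc1, at ranks 25, 9, 26 and 26, Sntn, at ranks 33, 26, 14 and 22, and Ccdc114, at ranks 19, 24, 12 and 7. Across the 38 genes, log2 CPM per kilobase correlated between samples with Pearson r from 0.8503 to 0.965, highest between the Mll4-deleted samples and lowest between K-Ras replicate 2 and Mll4-deleted replicate 1. These are correlations across genes, which share a library in each sample and are not independent replicates. Rfx3 moved the most, from rank 22 in K-Ras replicate 1 and rank 33 in K-Ras replicate 2 to ranks 8 and 9 in the Mll4-deleted samples.

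The spread inside the K-Ras group exceeded the distance between K-Ras replicate 1 and the Mll4-deleted samples. K-Ras replicate 2 was at least 2-fold above K-Ras replicate 1 for 38 of 38 members, against 8.06% of all genes tested, and at least 4-fold above it for 30 of 38, against 2.45%. The fold ranged from 2.19 in Rfx3 to 8.10 in Drc1, with a median of 4.69, where the median over all genes was 1.015. K-Ras replicate 1 over the Mll4-deleted mean had a median of 1.72 and ranged from 0.815 to 2.84. Between the Mll4-deleted samples, replicate 2 over replicate 1 had a median of 1.20, from 0.772 in Dnah7a to 1.99 in Spag16, and 28 of 38 members were higher in replicate 2. The median SD of log2 CPM within a group was 1.58 for the members in K-Ras and 0.20 in Mll4-deleted tumours, against 0.20 and 0.14 for the 15945 tested genes with reads in every sample.

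Counting error did not cover the K-Ras fold of the summed list in every member. The counting interval of the fold held the summed value of 5.06 for 17 members, lay above it for 8 and lay below it for 13. The 8 above were Foxj1, Drc1, Dnali1, Dnah6, Ccdc40, Hydin, Dnah5 and Dnah9. The intervals of Rfx3 and Dnah2 ended farthest below it. The fold of Tekt2, 2.65 (interval 1.83 to 3.90), was smaller than that of Dnah2, 3.09, but its interval was wider. With 1 sample on each side these folds compare 2 libraries, and since the intervals leave out spread between samples, they do not show that the genes differ in fold.

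**Figure D2:**
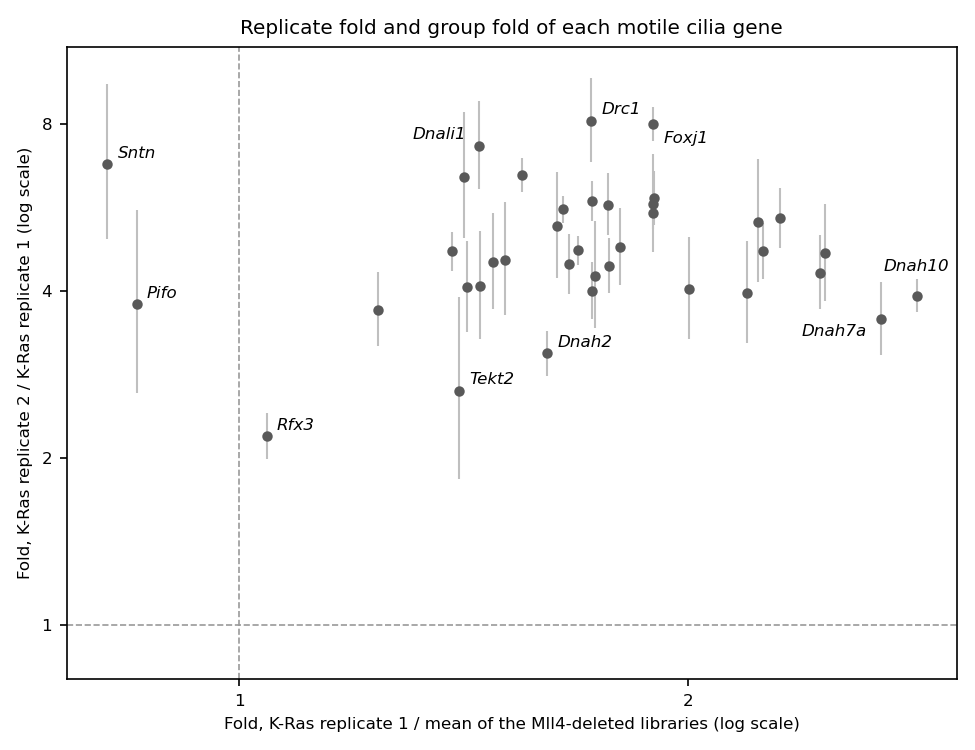
Each point is 1 of the 38 motile cilia genes, with the fold of K-Ras replicate 1 over the Mll4-deleted mean on the horizontal axis and the fold of K-Ras replicate 2 over K-Ras replicate 1 on the vertical axis, both on log scales, and vertical bars giving the 95% counting interval. All 38 points lie above 2 on the vertical axis, and 36 lie right of 1 on the horizontal axis, with Pifo and Sntn to its left.

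Without K-Ras replicate 2 the differences shrank but mostly kept their direction. In a fit of K-Ras replicate 1 against the Mll4-deleted samples, where the lone sample is assumed to vary like the others, the median log2 fold change of the members was -0.79, against -2.38 with all samples and -0.01 over all genes in the smaller fit. Estimates were lower in Mll4-deleted tumours for 36 of 38 members, and positive for Pifo, 0.22 (SE 0.43), and Sntn, 0.28 (SE 0.39). By the edgeR test 0 members were called, with a smallest adjusted p of 0.139, and 21 had an unadjusted p under 0.05 and lower values, where 10.7% of the 16341 genes in that fit did. DESeq2 on the same 3 samples called 1 member lower, Dnah10, where it called 2.48% of all genes lower. Dnah10 was at -1.52 (SE 0.29) in log2 and Dnah7a at -1.44 (SE 0.30), the largest estimates among the members in that fit. Foxj1 came to -0.93 (SE 0.22) and Rfx3 to -0.07 (SE 0.17).

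**Figure D3:**
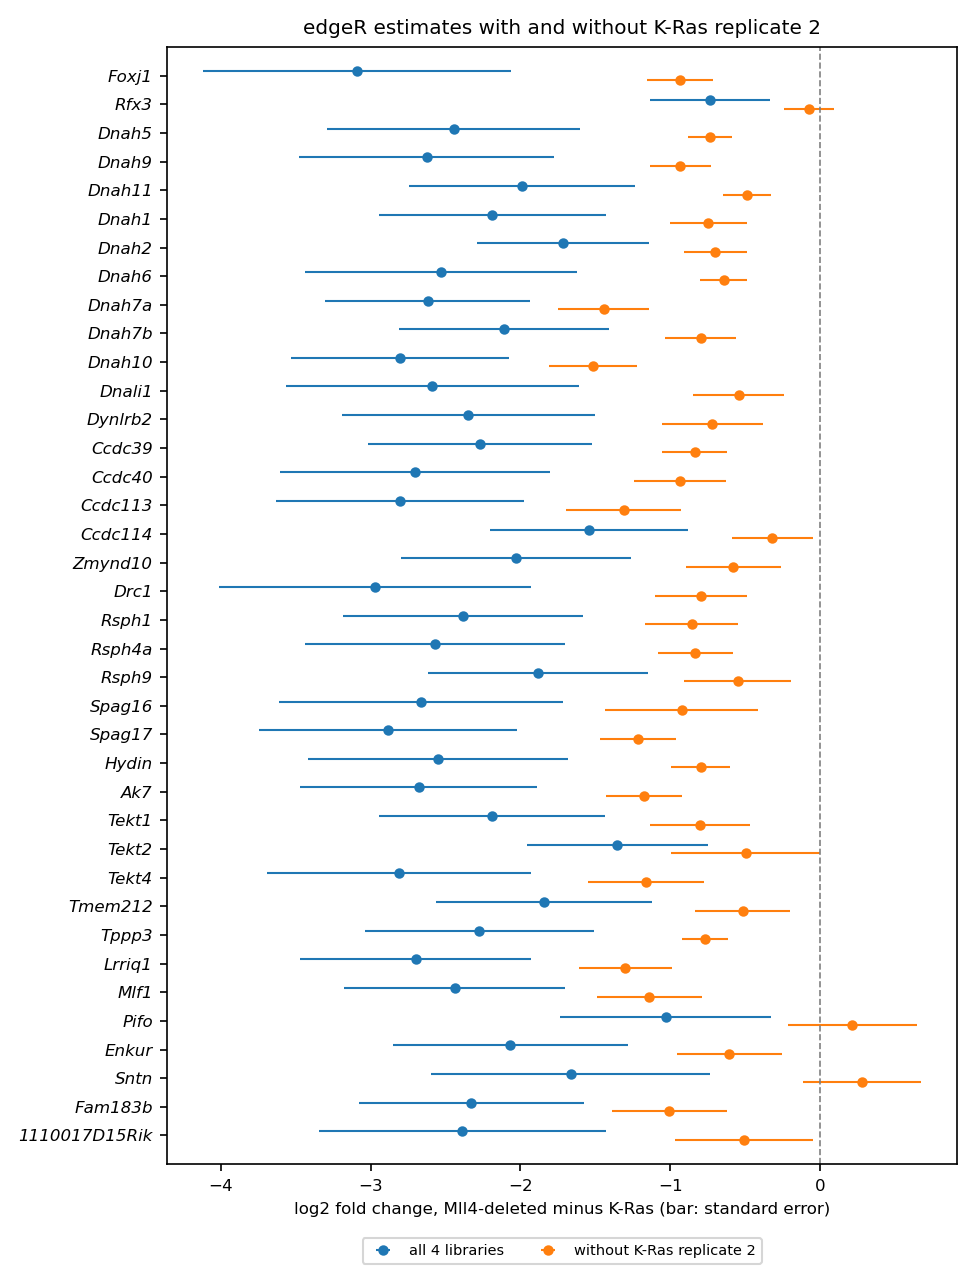
Log2 fold change, Mll4-deleted minus K-Ras, of each of the 38 motile cilia genes from edgeR with all 4 libraries and without K-Ras replicate 2, with bars for the standard error. The estimates without that library lie closer to 0 for all 38 genes, with a median of -0.79 against -2.38, and those of Pifo and Sntn cross it.

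Further axoneme genes had values much like those of the members. Of 53 other axoneme genes listed, 48 were tested, and they had a median log2 fold change of -2.30 and a median K-Ras fold of 4.79, with 44 at least 2-fold higher in K-Ras replicate 2. Both Mll4-deleted samples lay below both K-Ras samples for 41 of the 48, against 28.5% of all genes. The edgeR test called 0 of them, with 25 lower at an unadjusted p under 0.05, and DESeq2 called 28 lower. Over all genes tested, 10.4% were lower at that unadjusted p and DESeq2 called 4.98% lower. The most abundant were Cfap44, at 27.3, 131, 8.87 and 11.8 CPM, Ccdc108 (also Cfap65), at 18.7, 91.4, 5.64 and 8.16 CPM, and Cfap43, at 16.8, 79.2, 8.76 and 10.3 CPM.

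Genes that assemble arms, form basal bodies or carry cargo had smaller median K-Ras folds. The 10 tested genes of dynein arm assembly had a median log2 fold change of -1.11 and a median K-Ras fold of 2.46. Among them Dnaaf5 stood at 20.5, 40.5, 21.1 and 23.7 CPM, 1110004E09Rik (also Cfap298) at 12.3, 25.7, 12.7 and 13.8 CPM and Spag1 at 8.14, 16.3, 8.11 and 7.91 CPM, each nearly level in 3 of the 4 samples. The 10 tested genes of multiciliated cell formation, which build the many basal bodies, had medians of -2.02 and 2.14. Both Mll4-deleted samples lay below both K-Ras samples for 9 of 10, against 28.5% of all genes. Of these, Ccdc78 stood at 8.67, 35.6, 3.81 and 4.22 CPM and Rfx2, another X-box factor, at 11.5, 29.0, 7.62 and 8.87 CPM, while Cep152, which also serves ordinary centriole duplication, stood at 20.9, 18.6, 16.2 and 18.5 CPM. The 31 genes of intraflagellar transport and the BBSome, which carry cargo in motile and primary cilia alike, had medians of -0.49 and 1.55, and 5 of 31 were at least 2-fold higher in K-Ras replicate 2, against 8.06% of all genes. Their most abundant genes were Dync2h1, at 62.6, 119, 45.0 and 48.1 CPM, Kif3b, at 60.4, 66.9, 58.4 and 51.5 CPM, and Ift172, at 47.6, 91.2, 42.7 and 46.9 CPM. The edgeR test called 0 genes of these 3 lists, with 3, 8 and 7 lower at an unadjusted p under 0.05, and DESeq2 called 2, 4 and 3 lower, in the order assembly, multiciliated cell formation and transport. The shares over all genes tested were 10.4% for the unadjusted p and 4.98% for DESeq2.

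The summed markers of ciliated, club and goblet cells of the airway were also highest in K-Ras replicate 2. All 7 tested markers of ciliated cells that are not themselves members were at least 2-fold higher in K-Ras replicate 2, and their summed level was 39.6 and 172 CPM in the K-Ras samples and 17.98 and 21.3 CPM in the Mll4-deleted samples, with none at 0 in any sample. Cdhr3 stood at 14.3, 69.0, 6.59 and 9.80 CPM, Ccdc153 at 12.7, 50.2, 6.09 and 5.31 CPM and 1700016K19Rik at 4.02, 18.2, 1.90 and 1.99 CPM. The 10 markers of club cells, the secretory neighbours of ciliated cells, summed to 1212 and 4964 CPM in the K-Ras samples and to 1047 and 782 CPM in the Mll4-deleted samples, again with none at 0, and 9 of 10 were at least 2-fold higher in K-Ras replicate 2. Scgb1a1, the defining club cell secretoglobin, stood at 576, 2995, 566 and 439 CPM, Cbr2 at 458, 1165, 228 and 155 CPM and Cyp2f2 at 57.2, 385, 121 and 90.1 CPM. For club markers both Mll4-deleted samples lay below both K-Ras samples in 5 of 10 genes, against 28.5% of all genes, and K-Ras replicate 1 was 1.33-fold above the Mll4-deleted mean of the sum. The 6 goblet cell markers, led by Muc5b at 92.1, 342, 81.0 and 112 CPM, Muc5ac at 3.76, 7.17, 2.44 and 30.7 CPM and Clca1 at 6.47, 1.27, 2.29 and 3.75 CPM, summed to 105 and 359 CPM and to 90.6 and 151 CPM, with none at 0. Only 3 of the 6 were at least 2-fold higher in K-Ras replicate 2, and the sum there was mostly Muc5b. Clca1 was lowest in that sample, and Muc5ac was highest in Mll4-deleted replicate 2. The part of these airway markers in the difference of the cilia genes was not tested.

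The summed markers of basal cells, the airway progenitors, were higher in both Mll4-deleted samples, a difference that lay mostly in Trp63 and Krt14. The 6 genes summed to 4.12 and 10.3 CPM in the K-Ras samples and to 31.1 and 127 CPM in the Mll4-deleted samples. Trp63, the defining basal transcription factor, stood at 1.60, 4.48, 18.5 and 88.6 CPM and Ngfr at 0.621, 1.66, 1.29 and 1.09 CPM. Krt14, a basal keratin, had 0 reads in K-Ras replicate 1, which allows up to 0.103 CPM, 2 reads in K-Ras replicate 2, and 185 and 1119 reads in the Mll4-deleted samples. Krt15 and Dapl1 had negative log2 fold changes, -0.20 and -0.35. Of the 5 basal markers with reads in both K-Ras samples, 4 were at least 2-fold higher in K-Ras replicate 2. The edgeR test called 0 of the 6, with 2 (Trp63 and Krt14) higher at an unadjusted p under 0.05, and DESeq2 called these 2 higher. Their part in the result was not tested.

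Markers of other cells had smaller median K-Ras folds. Alveolar type 2 markers (Sftpc, Sftpb and Sftpa1 the most abundant), of a cell known to give rise to K-Ras lung tumours, had a median K-Ras fold of 1.54 over 7 genes, and alveolar type 1 markers (Aqp5, Ager and Akap5) 1.32 over 6 genes. Endothelial markers (Pecam1, Cdh5 and Kdr) stood at 1.08 and smooth muscle markers (Acta2, Myh11 and Tagln) at 1.02. Fibroblast markers (Col3a1, Col1a2 and Col1a1) had a median of 0.562 and immune markers (Lyz2, Ptprc and Cd68) of 0.535. Lyz2, the most abundant immune marker, had a K-Ras fold of 1.009, and the summed immune markers one of 0.932. Summed alveolar type 2 markers came to 18293 and 30107 CPM in the K-Ras samples and 24662 and 26006 CPM in the Mll4-deleted samples. The 6 mesothelial markers summed to 21.9 and 22.7 CPM and to 124 and 224 CPM, a difference that lay in Msln, at 13.8, 17.02, 120.3 and 221 CPM. Upk1b, at 6.93, 4.32, 2.74 and 2.20 CPM, and Lrrn4, at 0.654, 0.470, 0.609 and 0.248 CPM, were not higher in the Mll4-deleted samples. The tested neuroendocrine markers (Syp, Calca and Resp18) had a median K-Ras fold of 1.08. The labelled tissue is lung, and these markers show alveolar, airway, endothelial and stromal transcripts in all 4 samples. The part of these other cells in the cilia result was not tested.

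**Figure D4:**
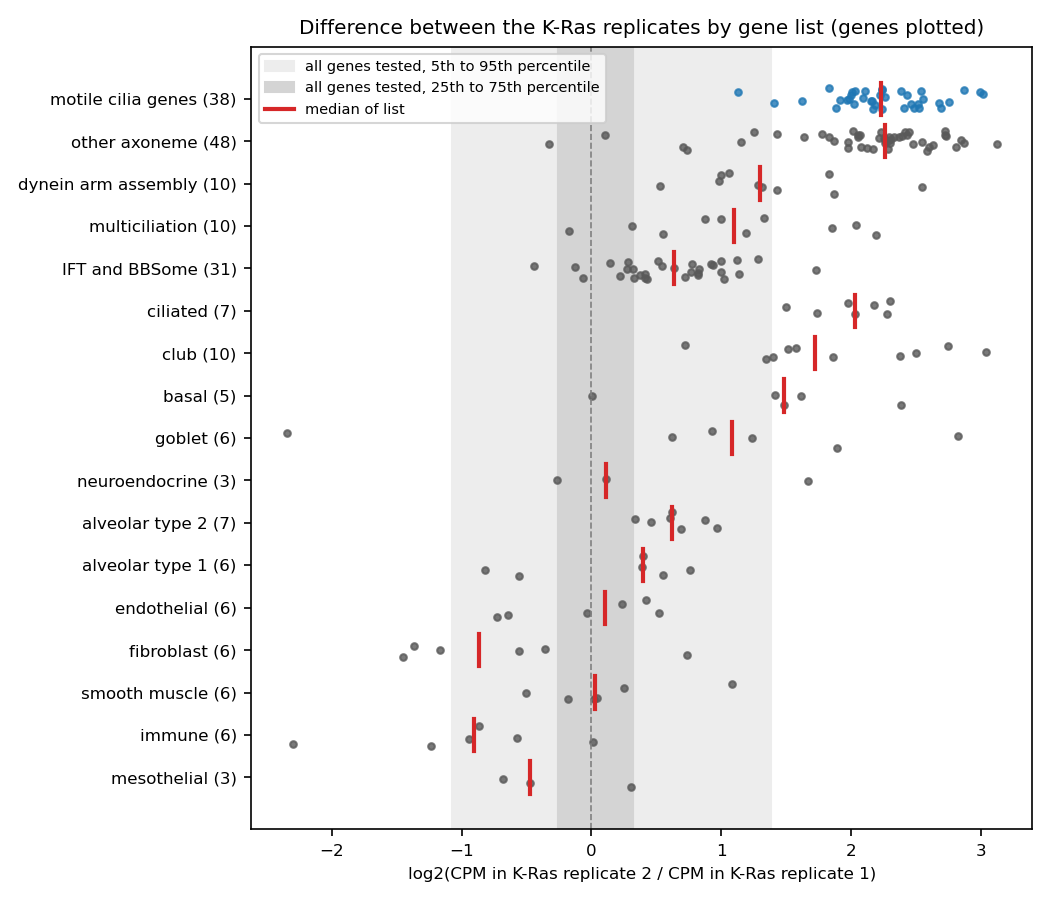
Log2 of CPM in K-Ras replicate 2 over CPM in K-Ras replicate 1 for each gene of the motile cilia list and of 16 other lists, with the number of genes plotted in parentheses, a red bar at the list median, and grey bands for the middle of all genes tested. The 38 motile cilia genes and the other axoneme genes have medians at folds of 4.69 and 4.79, and transport, alveolar and endothelial genes lie nearer 0.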

How the data were processed

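RNA sequencing (Illumina HiSeq, per the labels' protocols) gave 1 deposited file of raw read counts per gene symbol for each of the 4 samples. The submitters' processing notes name CASAVA 1.4, STAR, HTSeq and mm9, with no role or order, and the strand setting is not given in the sources used here. Rows outside genes held 60.1% to 65.6% of the reads and were left out, among them reads aligned to more than 1 place (31.5% to 36.7%), so near-identical copies are undercounted.

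Groups and replicate numbers came from the sample titles. Counts from all 4 samples were filtered with filterByExpr, normalised to TMM library sizes (trimmed mean of M values), and tested with the robust quasi-likelihood test of edgeR 4.0.16 in R 4.3.3, with Benjamini-Hochberg adjustment over all 16001 genes. A gene was called at an adjusted p under 0.05. Normalised CPM divides counts by these library sizes. The script was tested on simulated data. Alternatives were other scalings and filters, limma-voom (limma 3.58.1), DESeq2 1.42.0, edgeR's likelihood ratio test, the replicate number as a block, and each sample left out. Summed CPM was compared with an exact permutation test.

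All members were named, with the 3 most abundant genes of each other list. The members and lists were chosen with earlier results of these data known. Transcript lengths, shared windows and overlaps came from GENCODE M21 on GRCm38 and promoters from RefSeq GRCm38.p6, which may differ from the authors' build.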

Additional observations from a re-analysis of the deposited data

How the results depend on the processing

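Over all genes, the count of calls was 6 in the reported fit, 44 with no count filter, 1601 with DESeq2, 1503 with the edgeR likelihood ratio test and 0 with limma-voom (3228 at an unadjusted p under 0.05), and 0 to 528 with a sample left out, the 528 without K-Ras replicate 1. Of the 38 motile cilia genes, 29 were called with DESeq2 and 24 with the likelihood ratio test, all lower in Mll4-deleted tumours. Of all 16001 genes tested, DESeq2 called 797 lower and the likelihood ratio test 727 lower. Scaling, filters and limma-voom left 0 called. With limma-voom, 1 of the 38 had an unadjusted p under 0.05, against 26 in the reported fit. The cause of these differences was not tested. The median log2 fold change of the members was -2.43 to -1.97 over 9 other settings, and -3.10 to -0.79 with a sample left out, the last without K-Ras replicate 2. The summed difference was -2001 to -186 CPM with a sample left out. Against K-Ras replicate 1 alone, 0 members were called with edgeR and 1 with DESeq2, an alternative chosen after seeing the data. The count of members with no overlap between the groups was 36 also with CPM by total counts, tried after seeing the data. Leaving out K-Ras replicate 2, the highest sample for every member, cannot change that count. No member estimate changed sign under the 9 other settings, and Pifo (-1.68 to 0.22) and Sntn (-2.46 to 0.28) did with a sample left out.

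With the replicate number as a block, 217 genes and 0 members were called, and the members' median was -1.99. The labels do not say what samples of a number share, and with 2 pairs (correlation of their deviations 0.213) the numbers were not taken as pairs.

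Of the other named genes, the log2 fold change of Cd68 was 0.23 and the log2 fold change of Clca1 0.11 with limma-voom, and 0.23 and 0.00272 with the replicate block. Estimates that changed sign with a sample left out ranged over -0.95 to 0.093 for 1110004E09Rik, -0.82 to 1.498 for Cd68, -1.11 to 1.25 for Clca1, -1.87 to 0.87 for Cyp2f2, -0.85 to 0.11 for Dnaaf5, -0.47 to 0.19 for Kdr, -1.16 to 0.11 for Lrrn4, -0.57 to 0.0305 for Lyz2, -1.17 to 2.50 for Muc5ac, -1.82 to 0.055 for Muc5b, -1.05 to 0.0195 for Myh11, -0.48 to 0.92 for Ngfr, -0.33 to 0.63 for Ptprc and -0.67 to 0.19 for Sftpc. With 20 to 9208 reads per member and sample, depth limits the members with few reads.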

Other observations

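A further set of genes, chosen after their values were seen, was ordered across the 4 samples like most of the motile cilia genes. At least 4-fold higher CPM in K-Ras replicate 2 than in K-Ras replicate 1, with both Mll4-deleted samples below both K-Ras samples, was found for 202 of the 16001 genes tested. It was found for 29 of the 38 motile cilia genes of the list, which made up 14.4% of the 202. Of the rest, 38 stood in another list used here and 135 in none. Sec14l3, the most abundant of the 135, stood at 140.1 and 626 CPM in the K-Ras samples and at 107 and 106 CPM in the Mll4-deleted samples. Cyp2b10, a cytochrome P450, stood at 30.7 and 135 CPM and at 25.3 and 17.3 CPM. Fhad1 stood at 20.2 and 91.1 CPM and at 6.55 and 8.16 CPM, and Ttc21a, a relative of the intraflagellar transport gene Ttc21b, at 16.3 and 93.9 CPM and at 7.43 and 7.51 CPM. Gabrp, a GABA receptor subunit, stood at 12.2 and 60.0 CPM and at 7.96 and 6.67 CPM. None of these 5 genes was called between the groups, with edgeR adjusted p from 0.177 to 0.243.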
